A study of Mus musculus with 6 samples.

Results

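The genes described here encode the proteins that dock secretory vesicles at the plasma membrane and fuse the 2 membranes. They were taken by symbol: syntaxins (Stx), syntaxin-binding proteins (Stxbp), vesicle-associated membrane proteins (Vamp), Snap23, Snap25 and Snap29, synaptotagmins (Syt), Doc2 proteins, complexins (Cplx), Unc13 and Rims proteins, Rab3 and Rab27 GTPases, and synaptotagmin-like proteins (Sytl). Of 46959 genes in the table, 77 had such a symbol. The 58 genes described, called members below, reached at least 1 RPKM (reads per kilobase of gene, scaled to the size of the library) in at least 2 of the 6 libraries. The same minimum left 13367 genes for testing. Just inside it were Cplx1, with 1.34 and 4.50 RPKM in the immature libraries and under 1 RPKM in the other 4, and Rab27b, with 1 library at 1.005 and 1 at 1.15 RPKM. Just outside, with 1 library each at or above the minimum, were Sytl3 (1.16), Unc13d (1.05), Syt17 (1.004) and Vamp5 (2.36). The other symbols outside included Cplx3, Cplx4, Doc2a, Doc2g, Rims1, Rims4, Stx19, Stxbp3-ps, Syt6, Syt8, Syt10, Syt15, Unc13c and Vamp7-ps, and of the 19 genes outside Vamp7-ps was listed at 0 in all 6 libraries.

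RNA was sequenced from 3 populations sorted from islets of adult mice, with 2 libraries per population. The mice were offspring of a cross and carried Ins1-H2b-mCherry, a nuclear red reporter driven by an insulin gene, and Ucn3-eGFP, a green reporter driven by the urocortin 3 gene, which mature beta cells express. Immature beta cells carried mCherry alone, mature beta cells carried both reporters, and double negative cells, the non-beta fraction, carried neither. All 3 populations shared the transgenes, an overnight culture of the islets in 5.5 mM glucose and dissociation with trypsin. Each group's islets were pooled from 10 to 12 mice, described as females in the design text, whereas replicates 1 and 2 bear the sex labels male and female. The double negative group is a mixture of islet cell types, and the immature group is set by the absence of a reporter. Apart from the sex labels, which conflict with the design text, nothing states that the replicates came from separate pools. The p-values thus speak only of the spread among the libraries, which may be technical. If the sex labels hold, sex and replicate number cannot be told apart.

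Regulated secretion depends on SNARE proteins. A vesicle SNARE (a VAMP) pairs with plasma membrane SNAREs (a syntaxin and a SNAP protein), and the bundle they form drives fusion. Munc18 proteins hold and template syntaxins, Unc13 and Rims proteins prime vesicles, complexins clamp and promote the bundle, and synaptotagmins and Doc2 proteins couple fusion to calcium. Rab3 and Rab27 GTPases sit on the granule and recruit effectors, among them the synaptotagmin-like proteins, which tether insulin granules in beta cells and glucagon granules in alpha cells.

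The immature libraries were the shallowest, with 2393841 and 3448926 reads against 22063880 to 26824380 in the others. For a gene of 1 kb, each read added 0.418 and 0.290 RPKM in the immature and 0.0373 to 0.0453 RPKM in the other libraries. The SD of the difference between replicates on the log2(RPKM + 1) scale was 0.393 (immature), 0.132 (mature) and 0.222 (double negative). Defining markers followed the beta label: the 8 beta markers summed to 206870 and 222310 (mature), 57365 and 62986 (immature) and 1502.5 and 3217 RPKM (double negative). Markers of other cells lay above the mature libraries, without overlap, in the immature ones for 8 of 8 alpha genes (29226 and 19908 RPKM summed, against 687 and 894), 5 of 5 delta genes (3385 and 3700.5, against 221 and 338), 2 of 2 PP genes (7290.5 and 8546, against 171 and 156), 12 of 12 acinar genes (9681.5 and 30160, against 192 and 133), 12 of 12 immune genes (1962 and 2042, against 19.97 and 20.5), 10 of 10 endothelial genes (846 and 794, against 4.54 and 3.02) and 9 of 9 mesenchymal genes (145 and 102, against 0.44 and 0.494). The remaining lists differed: 4 of 7 ductal genes were higher without overlap in the immature libraries while their sum was lower there (523 and 548 RPKM, against 903 and 974), and so were 4 of 7 glial and neuronal genes, with sums of 30.0 and 33.4 against 33.9 and 35.4 RPKM. Of 8 pan-endocrine genes 3 were higher, with sums of 8486 and 8625 against 11039 and 11272 RPKM. The alpha, delta and PP sums were highest in the double negative libraries (178410 and 171970, 20373 and 21918, 19147 and 20419 RPKM). Ptprc, Tyrobp, Acta2, Lum, Sox10 and Ngfr were at 0 in 1 mature library each and S100b in 1 mature and 1 immature library, and none of the alpha, delta, PP, acinar or endothelial markers was at 0 in any library. In bulk RNA, fewer cells of a type and less RNA per cell cannot be told apart, and the part of other cell types in the differences below was not tested unless a value is given.

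Differences are given on the log2(RPKM + 1) scale, which understates the change of low genes, with adjusted p from limma over all 13367 genes and a threshold of 0.05. In immature against mature beta cells, 21 of 58 members rose and 17 fell, and 20 did not pass. The share that rose was 36.2% against 49.8% of all tested genes, and the share that fell was 29.3% against 15.5%. The median difference of the members was 0.08 and that of all tested genes 0.29. This split moved with the scaling of the libraries: it was 19 higher and 29 lower with median-ratio rescaling (32.8% and 50%, against 33.7% and 32.2% of all genes), where the median of all genes was 0.000998. With quantile normalization it was 9 higher and 30 lower (15.5% and 51.7%, against 23.4% and 40.1% of all genes), where that median was -0.17. Median-ratio rescaling centres the ratios between libraries on their median over genes, and quantile normalization gives all libraries one distribution. All 17 falls passed on the RPKM scale and under both rescalings, and so did 9 rises: Cplx2, Rab3b, Stx11, Stx16, Stx1a, Stx4a, Stxbp5l, Sytl2 and Sytl5. Sizes moved too. Median-ratio rescaling moved 16 calls by over 1.5 times without ending them, to smaller rises of Cplx2 (0.18), Stx16 (0.24), Stx17 (0.22), Stx4a (0.50), Stxbp6 (0.53), Syt9 (0.37) and Vamp1 (0.34) and to larger falls of Rab27a (-0.67), Rab3a (-0.90), Rab3d (-0.997), Stx18 (-0.93), Syt14 (-0.60), Syt7 (-0.60), Unc13a (-0.67), Vamp2 (-0.73) and Vamp4 (-0.67). Quantile normalization moved 9, to rises of Rab3b (0.70), Stx11 (0.93), Stx1a (0.77), Stxbp5l (0.63) and Sytl2 (0.52) and falls of Stx18 (-0.97), Syt14 (-0.67), Unc13a (-0.59) and Vamp4 (-0.58). Cplx1, Doc2b, Rab27b, Rims3, Stx11, Syt1, Syt12, Syt16 and Sytl2 entered the members only through the populations where they were high. These counts describe the members, and neither the counts nor the calls of such genes support a direction.

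Mature beta cells differed from double negative cells in 43 members. Of these 25 were higher in mature cells (43.1% of members, against 23.1% of all tested genes) and 18 lower (31.0%, against 31.2%), with a member median of 0.06 and an all-gene median of -0.08. Immature against double negative cells gave 25 higher members (43.1%, against 45.9%) and 12 lower (20.7%, against 10.6%), with medians of 0.17 and 0.24. The higher count in this last comparison fell to 15 without double negative replicate 1 (25.9%, against 31.6% of all genes) and to 16 without double negative replicate 2 (27.6%, against 34.0%). It was 12 higher and 19 lower with median-ratio rescaling (20.7% and 32.8%, against 28.2% and 22.8% of all genes) and 8 higher and 24 lower with quantile normalization (13.8% and 41.4%, against 21.4% and 32.5%). The rises that passed there on the RPKM scale and under both rescalings were Rims3, Snap25, Stx11, Stx12, Stxbp2, Stxbp5, Syt4 and Sytl4. Calls that held there but moved in size by over 1.5 times were, with median-ratio rescaling, Snap23 (0.36), Snap25 (0.24), Stx12 (0.30), Stxbp2 (0.36), Stxbp5 (0.45) and Syt4 (0.49) as rises and Cplx2 (-0.76), Rab27a (-0.69), Stxbp5l (-0.62) and Syt5 (-0.64) as falls, and with quantile normalization Snap25 (0.26), Stx11 (0.58), Stx12 (0.33), Stxbp2 (0.34) and Stxbp5 (0.36) as rises and Rab27a (-0.66), Rims2 (-0.91), Stxbp5l (-0.83), Syt1 (-1.30), Syt11 (-0.94), Syt16 (-1.11), Syt5 (-0.61) and Syt9 (-1.15) as falls. Between mature and double negative cells quantile normalization so moved Syt3 (0.87), Syt5 (0.35) and Vamp2 (0.23) and Rab27b (-0.44) and Syt12 (-0.39). The 3 comparisons share libraries, so their values stand side by side and are not independent of each other.

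**Figure D1:**
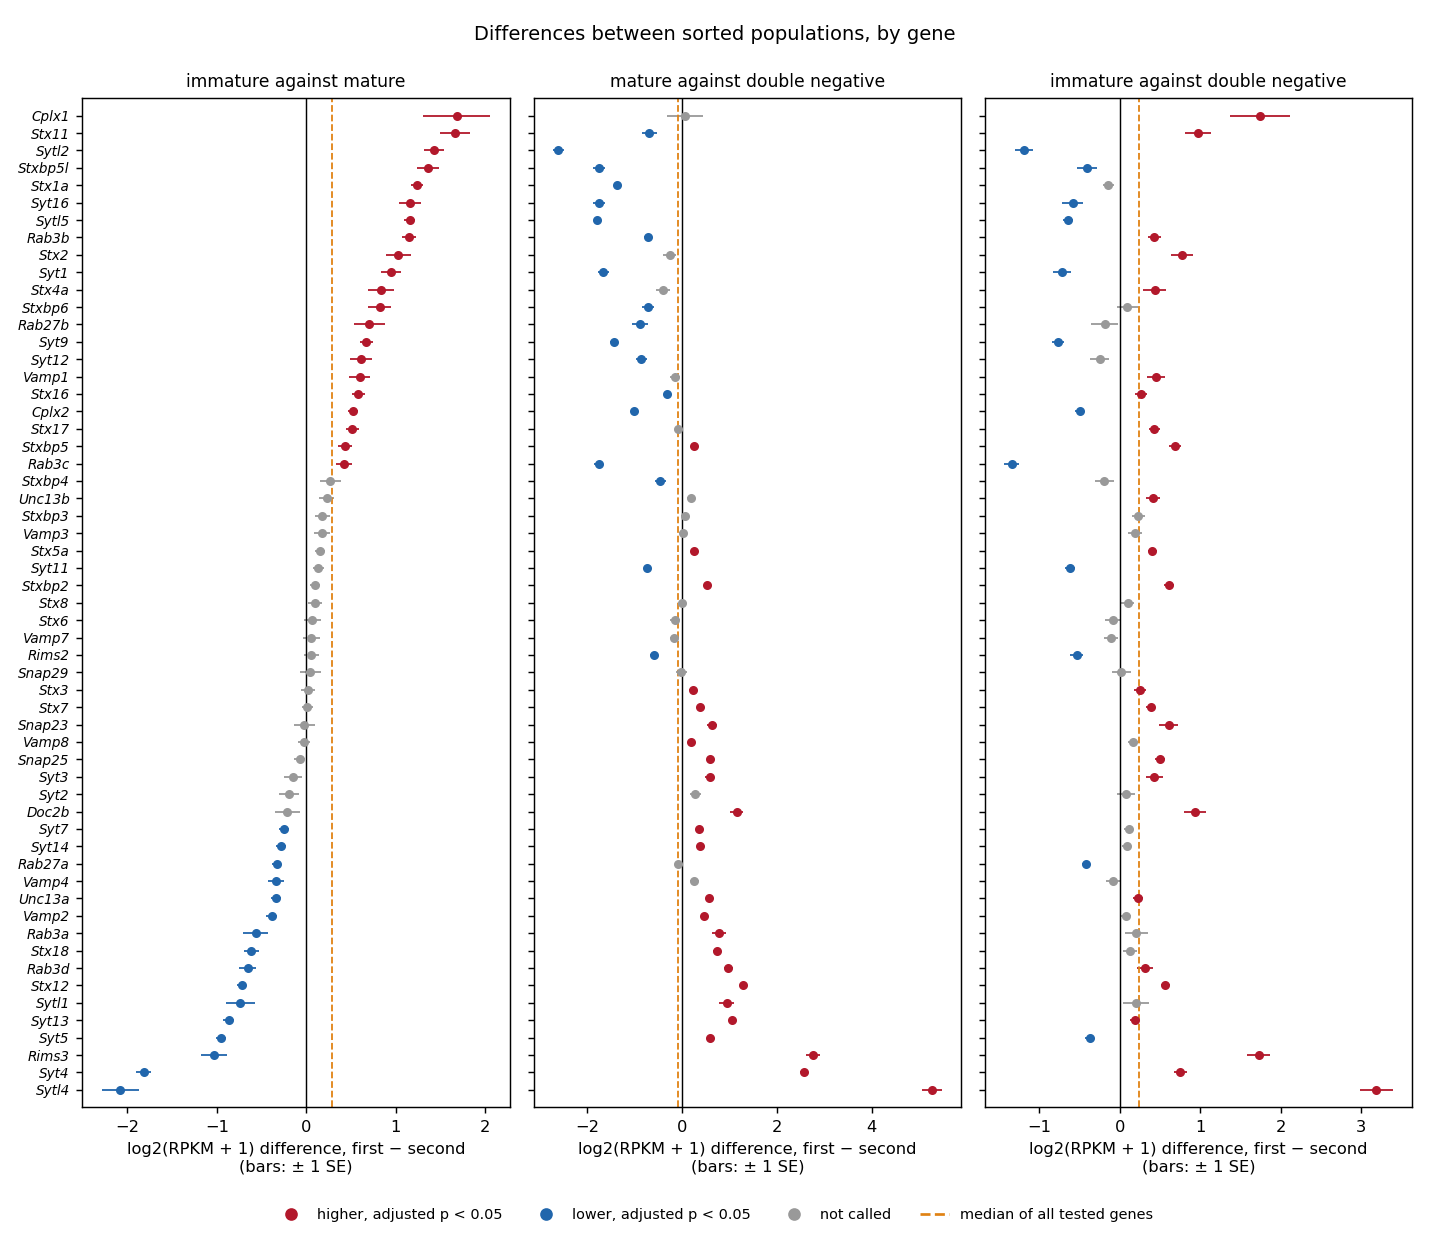
Difference in log2(RPKM + 1) for the members shown in the 3 comparisons, with bars of ± 1 SE (2 libraries per group), red for higher and blue for lower at a limma adjusted p under 0.05, grey for not called, and a dashed line at the median of all tested genes. Sytl4 has the lowest value in immature against mature cells (-2.08) and the highest in mature against double negative cells (5.26), and the dashed line moves with library scaling, which turns the direction of some members near it.

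Sytl4 showed the largest difference among the members. It encodes granuphilin, a Rab27 effector that docks insulin granules at the plasma membrane (ENSMUSG00000031255.14, chromosome X, 133936385 to 133981812, minus strand, GRCm38). Sytl4 stood at 16.5 and 16.9 (immature), 74.1 and 73.7 (mature) and 0.539 and 1.47 RPKM (double negative). These values rest on 203 and 299, 9003 and 10129 and 61 and 171 reads. No group overlapped another: the mature libraries were high, the immature ones between and the double negative ones lowest. Sytl4 fell from mature to immature cells by 2.08 (SE 0.21, adjusted p = 0.000354), and exceeded double negative cells by 5.26 (SE 0.21, adjusted p = 1.5e-05) in mature and by 3.19 (SE 0.21, adjusted p = 0.000117) in immature cells. It kept its call and direction under every alternative run in all 3 comparisons.

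The other synaptotagmin-like proteins ran the other way or changed less. Sytl2, a Rab27 effector known from glucagon granules of alpha cells, stood at 2.06 and 1.60 (immature), 0.0306 and 0.0704 (mature) and 5.44 and 5.37 RPKM (double negative), from 34 and 38, 5 and 13 and 827 and 841 reads. It rose by 1.43 (SE 0.11, adjusted p = 0.000141) in immature against mature cells and was lower by 2.61 (SE 0.11, adjusted p = 1.96e-05) in mature and by 1.18 (SE 0.11, adjusted p = 0.000443) in immature than in double negative cells. Sytl5, another family member that binds Rab27, stood at 24.3 and 24.2 (immature), 10.8 and 9.88 (mature) and 37.4 and 39.4 RPKM (double negative). Its rise in immature against mature cells was 1.16 (SE 0.06, adjusted p = 3.37e-05), and mature and immature cells lay 1.80 (SE 0.06, adjusted p = 1.11e-05) and 0.64 (SE 0.06, adjusted p = 0.000501) under double negative cells. Both genes were highest in the double negative libraries, where the alpha, delta and PP marker sums were all highest too. The part of these cell types in the values was not tested. Sytl1 stood at 7.63 and 11.2 (immature), 16.3 and 15.9 (mature) and 8.21 and 7.62 RPKM (double negative), fell by 0.74 (SE 0.16, adjusted p = 0.00796) in immature cells (-0.49 without immature replicate 1), and did not pass between immature and double negative cells (0.20, SE 0.16, adjusted p = 0.32).

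Within the family, the share of Sytl4 in summed RPKM was 32.0% and 30.9% in immature, 72.9% and 73.8% in mature and 1.04% and 2.71% in double negative libraries. Sytl5 held 47.0% and 44.1%, 10.6% and 9.90%, and 71.9% and 72.6% in the same order. Such shares do not change when all genes of a library are scaled by the same factor, as in median-ratio rescaling. Quantile normalization can change them, and no share was computed under it. Sytl4 was the main transcript of the family in mature cells and Sytl5 in double negative cells, and the immature libraries lay between them for both genes. With 2 libraries against 2, an exact permutation test of a share cannot pass 0.05, so none was run.

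**Figure D2:**
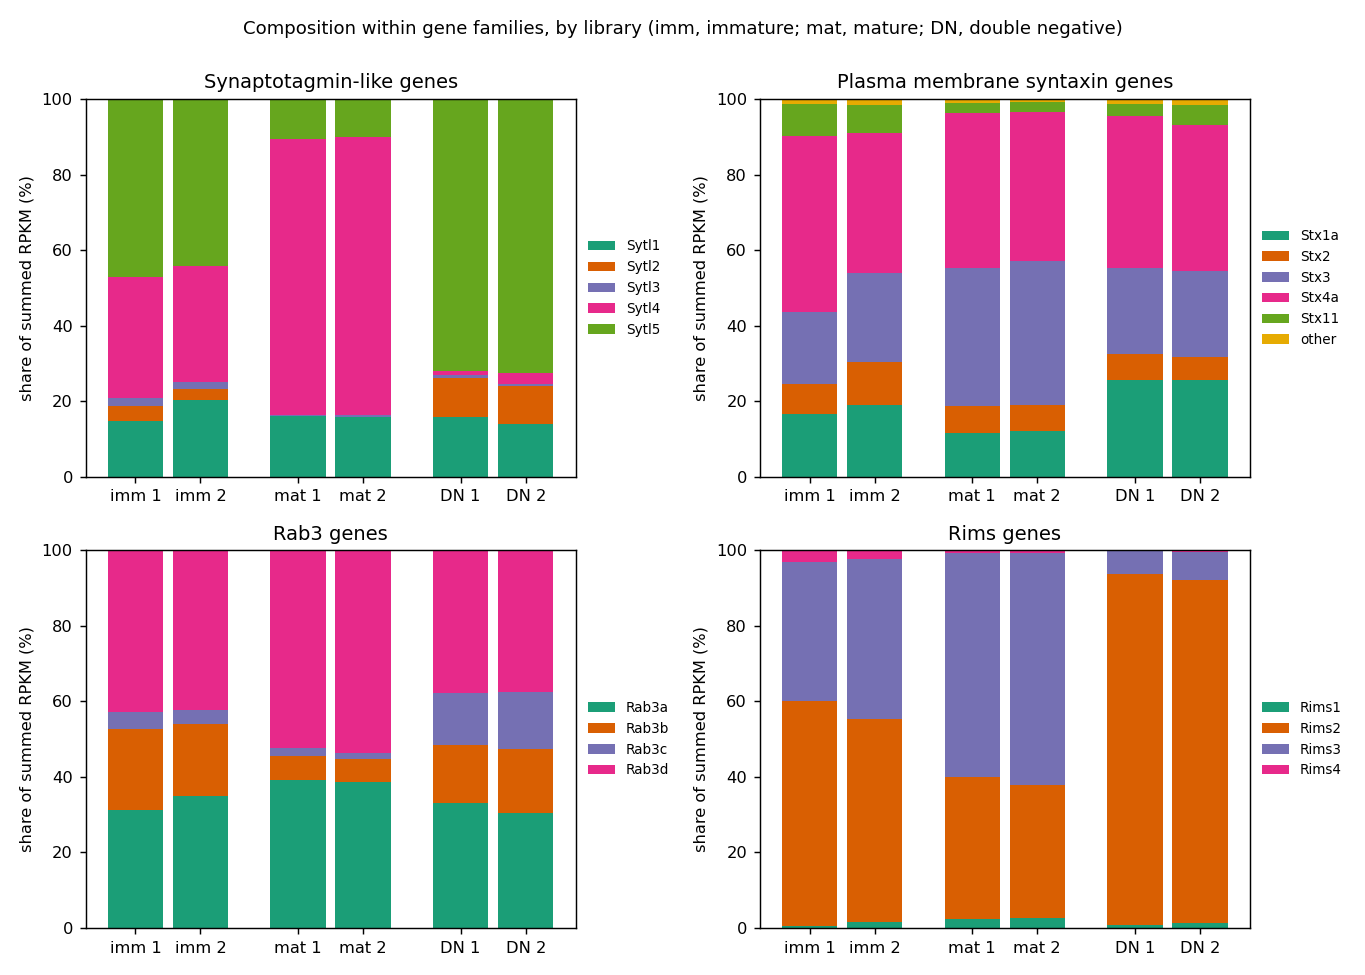
Share of each gene in the summed RPKM of its family (percent), by library, for synaptotagmin-like, plasma membrane syntaxin, Rab3 and Rims genes. The Sytl4 share is 72.9% and 73.8% in mature, 32.0% and 30.9% in immature and 1.04% and 2.71% in double negative libraries.

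The promoters of 4 members are shown as examples of both directions, chosen after their values were seen. Sytl4 and Rims3 fell in immature against mature cells, and Stx1a and Cplx1 rose there. Cplx1 did not pass with quantile normalization and was a member only through its immature libraries. The windows of 300 bases run 5′ to 3′ on the gene's strand from 250 bases before to 50 after the start, from RefSeq on GRCm38.p6. RefSeq windows were matched for 44 of the 58 members, 53 windows in all. Capitals mark exact matches on either strand. The GC box, bound by Sp factors, was searched as GGGCGG. The E-box of basic helix-loop-helix factors was searched as CAGCTG, which reads the same on both strands. The core of the site of CREB-type factors was searched as TGACG. The element of REST, a repressor of neuronal genes, has a left part, searched as TTCAGCACC, and a right part, searched as GGACAGC. None of these motifs holds another.
Sytl4, chrX:133981763-133982062, minus strand: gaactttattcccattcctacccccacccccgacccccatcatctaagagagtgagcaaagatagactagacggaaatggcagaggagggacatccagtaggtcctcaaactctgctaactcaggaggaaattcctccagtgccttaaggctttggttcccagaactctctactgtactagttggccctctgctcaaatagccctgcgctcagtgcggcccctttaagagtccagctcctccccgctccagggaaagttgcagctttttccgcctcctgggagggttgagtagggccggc
Rims3, chr4:120854549-120854848, plus strand: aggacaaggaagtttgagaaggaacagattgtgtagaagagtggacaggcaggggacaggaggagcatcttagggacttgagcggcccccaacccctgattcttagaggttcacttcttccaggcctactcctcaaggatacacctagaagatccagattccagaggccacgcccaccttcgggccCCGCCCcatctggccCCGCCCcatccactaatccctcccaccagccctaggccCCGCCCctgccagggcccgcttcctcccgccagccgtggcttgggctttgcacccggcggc
Stx1a, chr5:135023232-135023531, plus strand: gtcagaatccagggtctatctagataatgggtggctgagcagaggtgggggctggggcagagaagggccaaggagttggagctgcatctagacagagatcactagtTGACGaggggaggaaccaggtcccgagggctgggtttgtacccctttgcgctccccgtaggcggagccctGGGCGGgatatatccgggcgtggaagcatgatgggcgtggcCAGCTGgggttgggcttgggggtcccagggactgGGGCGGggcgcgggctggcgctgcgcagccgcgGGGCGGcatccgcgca
Cplx1, chr5:108549978-108550277, minus strand: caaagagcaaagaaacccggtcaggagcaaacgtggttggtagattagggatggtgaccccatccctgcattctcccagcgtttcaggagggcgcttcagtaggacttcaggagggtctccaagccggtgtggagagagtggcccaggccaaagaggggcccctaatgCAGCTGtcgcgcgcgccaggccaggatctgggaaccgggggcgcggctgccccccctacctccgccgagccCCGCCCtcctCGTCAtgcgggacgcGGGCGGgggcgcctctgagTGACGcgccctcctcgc
None of the 5 motifs matched in the Sytl4 window, and its GC content was 54.7%. The Rims3 window (62.3% GC) held 3 GC boxes, and the Stx1a window (66.3% GC) held 3 GC boxes, 1 E-box and 1 CREB core. The Cplx1 window (67% GC) held 2 GC boxes, 1 E-box and 2 CREB cores. A GC box lay in 66.04% of the members' windows and in 35.7% of all 32851 RefSeq windows of this length, an E-box in 32.1% and 16.3%, and a CREB core in 28.3% and 20.8%. The left REST part matched 1 member window, that of Unc13a, and 0.371% of all windows. The right part matched 2, those of Stx5a and Unc13a, and 6.56% of all. A match describes the letters of a window and not a bound site.

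Among plasma membrane syntaxins, 4 of 5 members rose in immature against mature cells and none fell. Of all tested genes 49.8% rose and 15.5% fell in that comparison. With quantile normalization 3 of 5 rose, against 23.4% of all genes, and Stx3 fell under both rescalings. Stx1a, the syntaxin of neuronal and endocrine granule release (ENSMUSG00000007207.10, chromosome 5, 135023482 to 135051100, plus strand), stood at 11.1 and 11.7 (immature), 4.27 and 4.29 (mature) and 12.9 and 12.5 RPKM (double negative). The mature libraries were lowest and the other 4 lay close together. Stx1a rose in immature against mature cells by 1.24 (SE 0.06, adjusted p = 2.81e-05), was lower in mature than in double negative cells by 1.37 (SE 0.06, adjusted p = 2.57e-05), and did not pass between immature and double negative cells (-0.14, SE 0.06, adjusted p = 0.111), where it was lower past the threshold with median-ratio rescaling (-0.39) and quantile normalization (-0.47). Stx4a, a surface syntaxin known from glucose transporter and insulin granule fusion, stood at 31.3 and 22.8 (immature), 15.1 and 14.0 (mature) and 20.2 and 18.9 RPKM (double negative). It rose in immature against mature cells by 0.83 (SE 0.14, adjusted p = 0.00327) and did not pass between mature and double negative cells (-0.40, SE 0.14, adjusted p = 0.0587) except with quantile normalization (-0.44).

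Stx11, a syntaxin known from granule release of cytotoxic lymphocytes, stood at 5.58 and 4.60 (immature), 0.915 and 0.918 (mature) and 1.66 and 2.59 RPKM (double negative). Its immature libraries were highest and its mature ones lowest. It rose by 1.66 (SE 0.17, adjusted p = 0.000349) in immature against mature cells and by 0.97 (SE 0.17, adjusted p = 0.00407) against double negative cells. The 12 immune markers were higher without overlap in the immature libraries than in the other 4 (1962 and 2042 RPKM summed, against 19.97 to 47.6). So were the 12 acinar markers, the 10 endothelial markers and 8 of 9 mesenchymal markers. The part of any of these cell types in the rise of Stx11 was not tested. Stx2, another surface syntaxin, stood at 5.37 and 7.14 (immature), 2.67 and 2.40 (mature) and 3.39 and 3.07 RPKM (double negative) and rose by 1.03 (SE 0.14, adjusted p = 0.00108) in immature against mature cells, a call lost with quantile normalization (0.41, adjusted p = 0.0646). Stx3, a syntaxin of apical membranes and of granules, stood at 12.8 and 14.6 (immature), 13.4 and 13.5 (mature) and 11.5 and 11.2 RPKM (double negative), and the difference between immature and mature cells did not pass (0.02, SE 0.08, adjusted p = 0.858). Its sign in that comparison turned with median-ratio rescaling (-0.31) and quantile normalization (-0.28), both past the threshold. As a share of plasma membrane syntaxins, Stx3 held 19.02% and 23.5% in immature, 36.4% and 38.2% in mature and 22.8% in both double negative libraries, and Stx1a held 16.6% and 18.98%, 11.6% and 12.1%, and 25.7% and 25.5%.

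Snap25 and Snap23 are partners of syntaxin in the plasma membrane, and none of the 3 SNAP proteins passed between the beta populations. In that comparison 49.8% of all tested genes rose and 15.5% fell. Snap25, the neuronal and endocrine form, stood at 32.0 and 31.3 (immature), 34.0 and 32.8 (mature) and 21.0 and 23.1 RPKM (double negative), with a difference between immature and mature cells of -0.07 (SE 0.06, adjusted p = 0.333), which passed with median-ratio rescaling (-0.42). Both beta populations were above double negative cells, by 0.58 (SE 0.06, adjusted p = 0.000627) in mature and 0.50 (SE 0.06, adjusted p = 0.00124) in immature cells. Snap23, the broadly expressed form, stood at 15.7 and 12.6 (immature), 14.7 and 13.8 (mature) and 8.41 and 9.35 RPKM (double negative), was lower in immature than in mature cells past the threshold under median-ratio (-0.35) and quantile (-0.31) scaling alone, and was higher than in double negative cells by 0.63 (SE 0.11, adjusted p = 0.00494) in mature and by 0.61 (SE 0.11, adjusted p = 0.00584) in immature cells, the last lost with quantile normalization (0.31, adjusted p = 0.0553). Snap29, a broadly expressed form, ranged from 11.9 to 15.5 RPKM over the 6 libraries and passed in no comparison.

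Vesicle SNAREs showed small differences. Vamp2, the synaptobrevin of neurons and insulin granules, stood at 49.0 and 53.4 (immature), 65.4 and 69.1 (mature) and 48.4 and 48.3 RPKM (double negative). It fell by 0.39 (SE 0.06, adjusted p = 0.00219) in immature against mature cells and was higher in mature than in double negative cells by 0.47 (SE 0.06, adjusted p = 0.0013), while immature and double negative cells did not pass (0.08, SE 0.06, adjusted p = 0.299). Vamp3, known from recycling endosomes, stood at 35.1 and 29.6 (immature), 28.7 and 28.2 (mature) and 28.0 and 28.5 RPKM (double negative), and the difference between immature and mature cells was 0.18 (SE 0.08, adjusted p = 0.115). Vamp8, known from endosomes and from acinar zymogen granules, stood at 32.2 and 30.6 (immature), 31.3 and 32.7 (mature) and 29.2 and 26.7 RPKM (double negative), with a difference of -0.03 (SE 0.06, adjusted p = 0.732), which reached -0.37 and passed with median-ratio rescaling. The 12 acinar markers summed to 9681.5 and 30160 RPKM in the immature libraries against 192 and 133 in the mature ones, and their part in the Vamp8 values was not tested. Vamp4, of the trans-Golgi network, fell by 0.34 (SE 0.09, adjusted p = 0.0162) in immature against mature cells, a call lost without mature replicate 1 or 2 (adjusted p = 0.0761 to 0.0855). Vamp1, a second synaptobrevin at 3.16 and 3.79 (immature), 2.11 and 1.81 (mature) and 2.39 and 2.17 RPKM (double negative), rose by 0.60 (SE 0.11, adjusted p = 0.00479) but turned to -0.14 with quantile normalization. Vamp7 passed in no comparison on the RPKM scale and was lower in immature than in mature cells past the threshold with median-ratio rescaling (-0.28).

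Of the syntaxins inside the cell, which serve the Golgi, endosomes and lysosomes, 2 of 8 rose and 2 fell in immature against mature cells. These are 25% each, against 49.8% and 15.5% of all tested genes. Under each rescaling 4 fell, where 32.2% (median-ratio) and 40.1% (quantile) of all genes fell. Stx12, an endosomal syntaxin, stood at 40.1 and 42.4 (immature), 70.3 and 67.2 (mature) and 27.2 and 27.8 RPKM (double negative) and fell by 0.72 (SE 0.05, adjusted p = 0.000116), and exceeded double negative cells by 1.29 (SE 0.05, adjusted p = 1.79e-05) in mature and 0.57 (SE 0.05, adjusted p = 0.000453) in immature cells. Stx18, of the endoplasmic reticulum, fell by 0.62 (SE 0.09, adjusted p = 0.00135), and 1482 of its exonic bases overlap 2 other genes, the larger overlap being with Gm42858 on the other strand. The library kit does not mark strand. Stx16, of the trans-Golgi network, rose by 0.58 (SE 0.08, adjusted p = 0.00102). Stx17, of autophagosomes, rose by 0.51 (SE 0.07, adjusted p = 0.00132) but stood at -0.06 with quantile normalization. Stx5a, Stx6, Stx7 and Stx8 did not pass, but Stx5a (-0.18) and Stx7 (-0.33) were lower past the threshold with median-ratio rescaling and Stx6 (-0.45) and Stx8 (-0.58) with quantile normalization.

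Munc18 proteins bind syntaxins. Stxbp2 (Munc18-2) stood at 18.8 and 19.6 (immature), 17.9 and 17.8 (mature) and 12.6 and 11.9 RPKM (double negative) and Stxbp3 (Munc18-3), the partner of Stx4, at 6.81 and 7.76 (immature), 6.27 and 6.33 (mature) and 6.09 and 6.01 RPKM (double negative). Neither passed between the beta populations, with values of 0.10 (SE 0.06, adjusted p = 0.189) and 0.18 (SE 0.08, adjusted p = 0.0968), and each passed as lower in immature cells under 1 other scaling, Stxbp2 with median-ratio rescaling (-0.24) and Stxbp3 with quantile normalization (-0.28). Stxbp2 was higher than in double negative cells by 0.51 (SE 0.06, adjusted p = 0.000765) in mature and 0.61 (SE 0.06, adjusted p = 0.000453) in immature cells.

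Tomosyns occupy syntaxin and SNAP25 and hold back fusion. Stxbp5l (tomosyn-2) stood at 5.44 and 4.29 (immature), 1.22 and 1.34 (mature) and 6.27 and 7.17 RPKM (double negative). Its mature libraries lay far below the other 4. It rose by 1.36 (SE 0.12, adjusted p = 0.000255) in immature against mature cells and was lower by 1.76 (SE 0.12, adjusted p = 0.000118) in mature than in double negative cells. Stxbp5 (tomosyn-1) stood at 9.15 and 8.70 (immature), 6.69 and 6.06 (mature) and 5.13 and 5.19 RPKM (double negative) and rose by 0.43 (SE 0.08, adjusted p = 0.00361), a call lost or turned with median-ratio rescaling (0.12, adjusted p = 0.163), quantile normalization (-0.01, adjusted p = 0.922). Against double negative cells Stxbp5 was higher in immature cells by 0.69 (SE 0.08, adjusted p = 0.000787). Stxbp6 (amisyn), which also binds SNAREs, rose by 0.82 (SE 0.13, adjusted p = 0.00243) in immature against mature cells, a call lost with quantile normalization (0.24, adjusted p = 0.224).

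**Figure D3:**
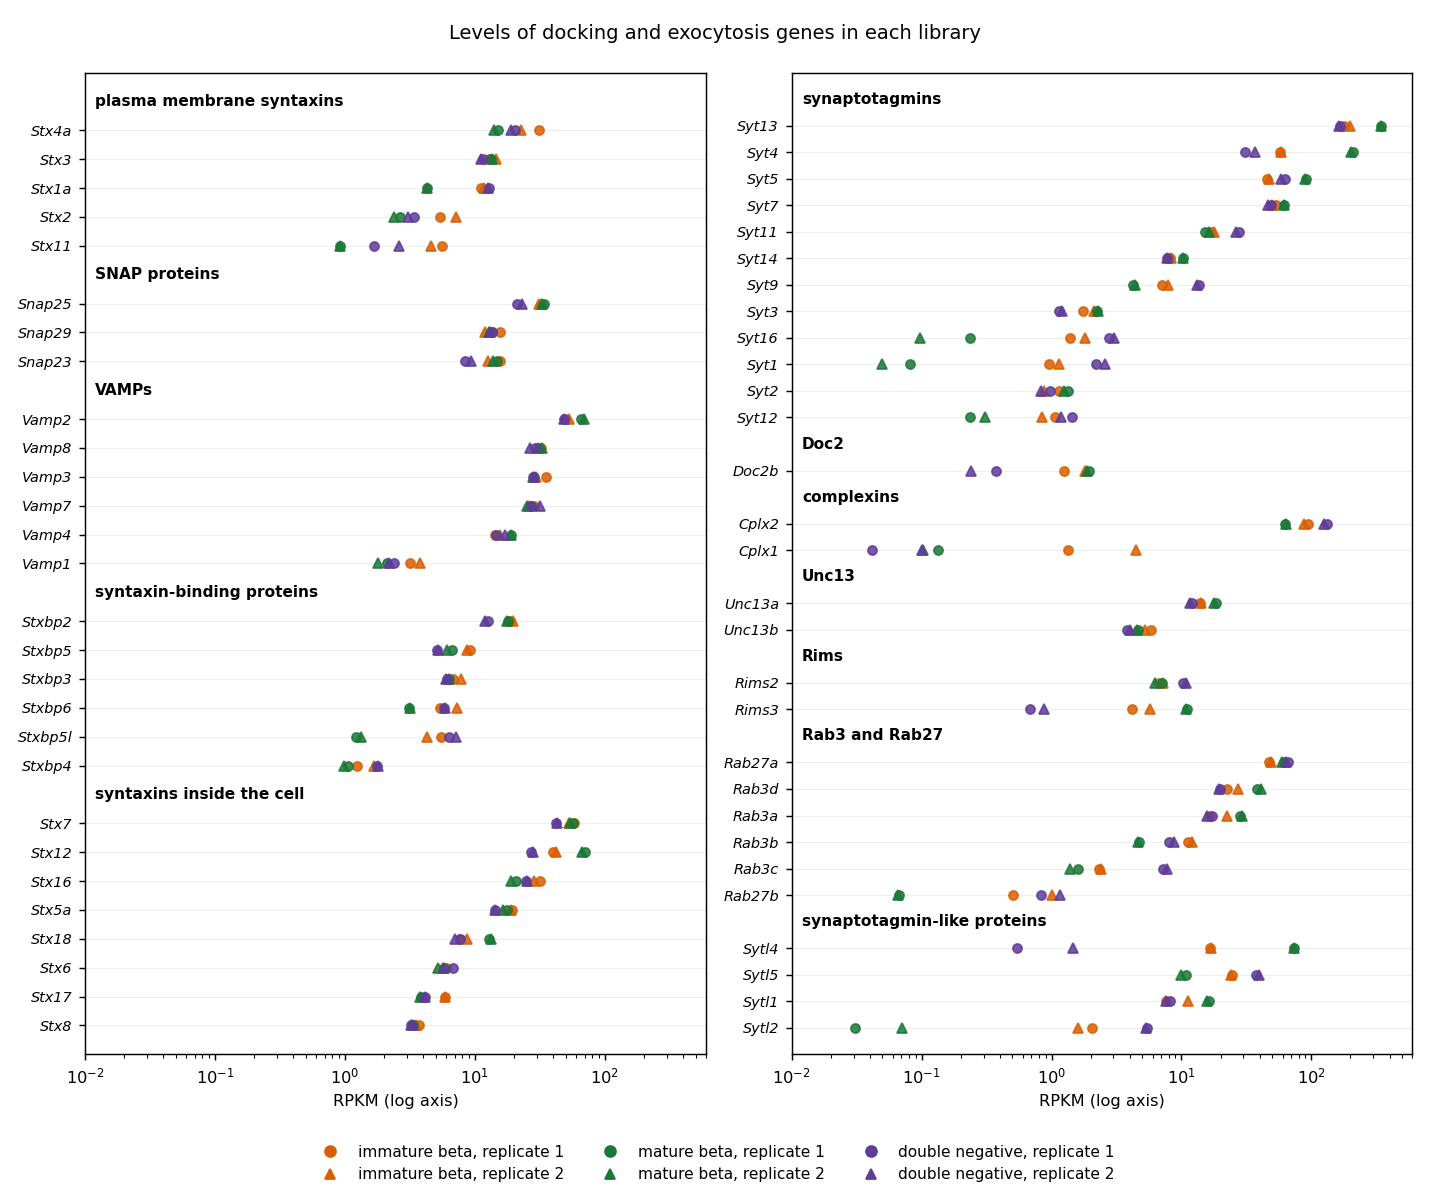
RPKM of the members shown in each of the 6 libraries on a log axis, by family, with colour for the population and circles and triangles for replicates 1 and 2. Syt13 is the highest member in each population (164 to 345 RPKM over the libraries), and Cplx1, Rab27b, Sytl2, Syt1 and Syt16 are among those under 1 RPKM in the mature libraries.

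Synaptotagmins had the largest summed RPKM of the families in every library, and Syt13 was the highest of them. Syt13, which lacks the calcium-binding residues of the classical sensors, stood at 179.8 and 197 (immature), 345 and 344 (mature) and 166 and 164 RPKM (double negative). It fell by 0.87 (SE 0.06, adjusted p = 8.26e-05) in immature against mature cells, and mature cells were above double negative cells by 1.06 (SE 0.06, adjusted p = 5.06e-05). Between immature and double negative cells the value was 0.19 (adjusted p = 0.0373), and it turned to -0.08 with median-ratio rescaling and -0.18 with quantile normalization. That call was also lost without immature replicate 2, without either mature and without either double negative library (adjusted p = 0.0817 to 0.12). Syt4, a synaptotagmin of beta cell granules with little calcium binding, stood at 57.0 and 57.97 (immature), 209 and 202 (mature) and 31.0 and 36.7 RPKM (double negative). No groups overlapped. It fell by 1.82 (SE 0.08, adjusted p = 1.7e-05) in immature against mature cells, and exceeded double negative cells by 2.57 (SE 0.08, adjusted p = 9.81e-06) in mature and 0.75 (SE 0.08, adjusted p = 0.000764) in immature cells. Of its annotated exons 566 bases lie over Gm26658.

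Among calcium-binding synaptotagmins, Syt5 and Syt7 fell and Syt1 and Syt9 rose in immature against mature cells on the RPKM scale, and neither rise passed with quantile normalization. Syt5, a calcium sensor of dense-core granules, stood at 45.3 and 47.1 (immature), 91.2 and 89.5 (mature) and 62.4 and 57.97 RPKM (double negative), fell by 0.95 (SE 0.06, adjusted p = 4.58e-05) in immature against mature cells and was under double negative cells by 0.37 (SE 0.06, adjusted p = 0.00254). The 2 immature libraries were the lowest of the 6 for Syt5, a pattern that Rab27a shared. Syt7, the high-affinity sensor of insulin and glucagon release, stood at 53.3 and 49.7 (immature), 61.3 and 61.4 (mature) and 48.7 and 46.4 RPKM (double negative) and fell by 0.25 (SE 0.06, adjusted p = 0.00899) in immature against mature cells, a call lost without mature replicate 1 or 2 (adjusted p = 0.0643 to 0.0675). Syt9, a calcium sensor of insulin-secreting cells, stood at 7.03 and 7.87 (immature), 4.24 and 4.36 (mature) and 13.6 and 13.1 RPKM (double negative) and rose by 0.67 (SE 0.08, adjusted p = 0.000592) in immature against mature cells, a call lost with quantile normalization (0.15, adjusted p = 0.179). It was below double negative cells by 1.44 (SE 0.08, adjusted p = 4.13e-05) in mature and 0.77 (SE 0.08, adjusted p = 0.00053) in immature cells. Syt1, the fast sensor of synapses, stood at 0.952 and 1.15 (immature), 0.0809 and 0.0492 (mature) and 2.20 and 2.56 RPKM (double negative), from 19 and 33, 16 and 11 and 404 and 486 reads, and its rise in immature against mature cells of 0.94 (SE 0.11, adjusted p = 0.000707) stood at -0.04 with quantile normalization. Syt1 was under double negative cells by 1.66 (SE 0.11, adjusted p = 9.73e-05) in mature and 0.72 (SE 0.11, adjusted p = 0.00288) in immature cells.

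Syt11, which binds no calcium, stood at 16.9 and 17.7 (immature), 15.2 and 16.2 (mature) and 27.6 and 26.3 RPKM (double negative), and did not pass between the beta populations (0.13, SE 0.06, adjusted p = 0.104). It was under double negative cells by 0.75 (SE 0.06, adjusted p = 0.000219) in mature and 0.61 (SE 0.06, adjusted p = 0.000558) in immature cells. Syt14, also without calcium binding, stood at 8.16 and 8.31 (immature), 10.3 and 10.2 (mature) and 7.68 and 7.72 RPKM (double negative), and its fall of 0.28 (SE 0.06, adjusted p = 0.00729) in immature cells was lost without mature replicate 1 or 2 (adjusted p = 0.0628 to 0.0684). Syt16, a relative of Syt14, stood at 1.39 and 1.82 (immature), 0.234 and 0.0965 (mature) and 2.78 and 3.01 RPKM (double negative) and rose by 1.16 (SE 0.13, adjusted p = 0.000511) in immature against mature cells, a call lost with quantile normalization (0.19, adjusted p = 0.262). Syt12 at 1.06 and 0.838 (immature), 0.236 and 0.310 (mature) and 1.45 and 1.18 RPKM (double negative) rose by 0.61 (SE 0.12, adjusted p = 0.00524) in immature against mature cells, a call lost or turned without mature replicate 1 (adjusted p = 0.0507) and with quantile normalization (-0.40, adjusted p = 0.0334). Syt2 and Syt3 did not pass between the beta populations on the RPKM scale, and both were lower in immature cells past the threshold with median-ratio rescaling (-0.38 for each) and quantile normalization (-1.08 and -0.92).

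Together Syt4 and Syt13 held 63.1% and 64.6% of summed synaptotagmin RPKM in immature, 74.8% and 74.6% in mature and 53.7% and 55.4% in double negative libraries. The calcium-binding forms (Syt1, Syt2, Syt3, Syt5, Syt6, Syt7, Syt9 and Syt10) held 29.3% and 27.7%, 21.7% in both, and 35.3% and 33.9%. Doc2b, a high-affinity calcium sensor, stood at 1.25 and 1.80 (immature), 1.93 and 1.87 (mature) and 0.374 and 0.242 RPKM (double negative). It did not pass between the beta populations (-0.21, SE 0.14, adjusted p = 0.218) but did as lower in immature cells with median-ratio rescaling (-0.43) and quantile normalization (-1.03). It was above double negative cells by 1.15 (SE 0.14, adjusted p = 0.000927) in mature and 0.94 (SE 0.14, adjusted p = 0.00229) in immature cells, the last lost with quantile normalization (0.36, adjusted p = 0.093). Doc2b met the minimum only through the beta libraries, so these 2 differences were favoured by the choice of genes and support no direction.

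Cplx2, the main complexin in every library, stood at 93.9 and 88.5 (immature), 62.9 and 63.3 (mature) and 132 and 126 RPKM (double negative). It rose by 0.52 (SE 0.05, adjusted p = 0.000392) in immature against mature cells, which was 0.18 (adjusted p = 0.0296) with median-ratio rescaling, and was under double negative cells by 1.02 (SE 0.05, adjusted p = 3.99e-05) in mature and 0.50 (SE 0.05, adjusted p = 0.000721) in immature cells. Cplx1 (ENSMUSG00000033615.9, chromosome 5, 108518554 to 108550024, minus strand), the form abundant in neurons, stood at 1.34 and 4.50 (immature), 0.135 and 0.102 (mature) and 0.0414 and 0.100 RPKM (double negative), from only 7 and 34, 7 and 6 and 2 and 5 reads. Both immature libraries were above the other 4, and the second was far above the first. Cplx1 met the minimum only through these immature libraries, so its rises were favoured by the choice of genes and support no direction. Cplx1 rose in immature against mature cells by 1.68 (SE 0.38, adjusted p = 0.00927), a call lost with quantile normalization (0.76, adjusted p = 0.172). Without immature replicate 2 the value was 1.06. Against double negative cells it rose by 1.74 (SE 0.38, adjusted p = 0.0101), a call lost without double negative replicate 1 or 2 (adjusted p = 0.0583 to 0.0681) and with quantile normalization (1.24, adjusted p = 0.0544). Without immature replicate 2 the value was 1.13. Both of these values rest on 1 immature library with 7 reads. The acinar marker sum was also higher in the second immature library (9681.5 and 30160 RPKM), and its part in this was not tested.

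**Figure D4:**
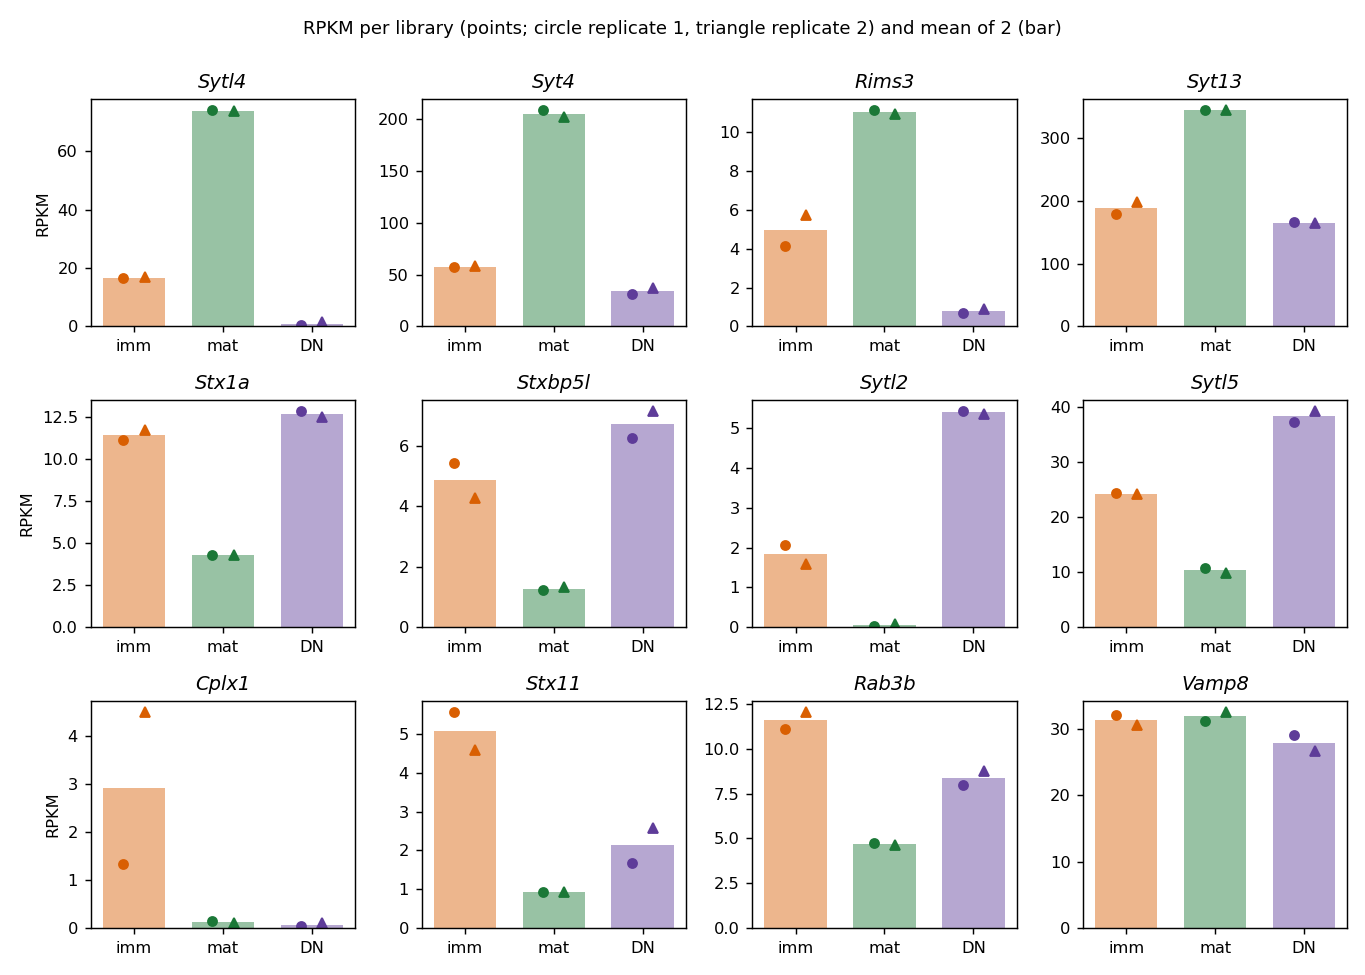
RPKM of single members in each library (circle, replicate 1; triangle, replicate 2) with the mean of 2 libraries as a bar, on linear axes that start at 0. Sytl4, Syt4 and Rims3 are highest in mature cells, while Stx1a and Sytl5 are lowest there.

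Priming factors split by gene. Rims3, a short Rim form that lacks the Rab- and Unc13-binding end (ENSMUSG00000032890.17, chromosome 4, 120854816 to 120896579, plus strand), stood at 4.14 and 5.75 (immature), 11.1 and 10.9 (mature) and 0.682 and 0.883 RPKM (double negative). The 3 groups did not overlap. Rims3 fell by 1.03 (SE 0.14, adjusted p = 0.00141) in immature against mature cells, and both beta populations lay above double negative cells, by 2.76 (SE 0.14, adjusted p = 3.99e-05) in mature and 1.73 (SE 0.14, adjusted p = 0.000283) in immature cells. As Rims3 met the minimum only through the beta libraries, its differences from double negative cells were favoured by the choice of genes. They support no direction. Rims2, the long scaffold known from insulin granule priming, stood at 6.71 and 7.24 (immature), 7.06 and 6.27 (mature) and 10.3 and 10.8 RPKM (double negative). It did not pass between the beta populations (0.06, SE 0.08, adjusted p = 0.563), and stood at -0.25 with median-ratio rescaling and -0.40 with quantile normalization, both past the threshold. It was under double negative cells by 0.59 (SE 0.08, adjusted p = 0.00171) in mature and 0.53 (SE 0.08, adjusted p = 0.0028) in immature cells. In summed Rims RPKM the share of Rims3 was 36.8% and 42.6% in immature, 59.2% and 61.4% in mature and 6.16% and 7.46% in double negative libraries. Rims1 was under the minimum at 0.0590 and 0.205 (immature), 0.459 and 0.474 (mature) and 0.0768 and 0.143 RPKM (double negative).

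Unc13a (Munc13-1), the main priming factor of insulin granules, stood at 14.0 and 14.2 (immature), 18.5 and 17.7 (mature) and 12.2 and 11.7 RPKM (double negative). It fell by 0.34 (SE 0.06, adjusted p = 0.00307) in immature against mature cells, was higher in mature than in double negative cells by 0.57 (SE 0.06, adjusted p = 0.000503), and shares 495 exonic bases with Colgalt1. Unc13b (Munc13-2) stood at 5.82 and 5.26 (immature), 4.66 and 4.52 (mature) and 3.78 and 4.05 RPKM (double negative) and did not pass between the beta populations (0.23, SE 0.08, adjusted p = 0.054), with a value of -0.33 past the threshold under quantile normalization.

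All 6 Rab3 and Rab27 members passed between the beta populations, with 3 rises and 3 falls (50% each, against 49.8% and 15.5% of all tested genes). The rises of Rab3c and Rab27b turned with quantile normalization. Rab3a, the neuronal and endocrine form on granules, stood at 16.3 and 22.4 (immature), 28.3 and 29.3 (mature) and 17.3 and 15.7 RPKM (double negative) and fell by 0.57 (SE 0.14, adjusted p = 0.0147) in immature cells, a call lost without mature replicate 1 or 2 (adjusted p = 0.0573 to 0.0732). Without immature replicate 1 the value was -0.35. Rab3d, also a granule form, stood at 22.3 and 27.0 (immature), 37.9 and 40.7 (mature) and 19.8 and 19.4 RPKM (double negative) and fell by 0.66 (SE 0.10, adjusted p = 0.00166). Both were higher in mature than in double negative cells, Rab3a by 0.77 (SE 0.14, adjusted p = 0.00547) and Rab3d by 0.97 (SE 0.10, adjusted p = 0.00044). Rab3b stood at 11.1 and 12.1 (immature), 4.73 and 4.63 (mature) and 7.97 and 8.75 RPKM (double negative) and rose by 1.15 (SE 0.08, adjusted p = 7.87e-05) in immature against mature cells. Rab3c stood at 2.31 and 2.39 (immature), 1.60 and 1.39 (mature) and 7.16 and 7.80 RPKM (double negative), and its rise of 0.42 (SE 0.09, adjusted p = 0.00793) was lost or turned without mature replicate 2 (adjusted p = 0.0712) and with median-ratio rescaling (0.19, adjusted p = 0.094), quantile normalization (-0.37, adjusted p = 0.0139). Rab3c was under double negative cells by 1.76 (SE 0.09, adjusted p = 3.83e-05) in mature and 1.34 (SE 0.09, adjusted p = 0.000137) in immature cells.

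Rab27a, the GTPase that recruits granuphilin to granules, stood at 46.8 and 48.8 (immature), 61.3 and 59.3 (mature) and 65.6 and 63.3 RPKM (double negative). It fell by 0.33 (SE 0.05, adjusted p = 0.00208) in immature against mature cells and was under double negative cells by 0.42 (SE 0.05, adjusted p = 0.00106) in immature cells, while mature and double negative cells did not pass (-0.10, SE 0.05, adjusted p = 0.163) except with quantile normalization (-0.34). Over the libraries, then, Rab27a spanned 46.8 to 65.6 RPKM while its effector Sytl4 spanned 0.539 to 74.1 RPKM. Rab27b stood at 0.509 and 1.005 (immature), 0.0671 and 0.0663 (mature) and 0.823 and 1.15 RPKM (double negative), and its rise of 0.71 (SE 0.17, adjusted p = 0.0123) in immature cells was lost or turned without mature replicate 1 or 2 (adjusted p = 0.0662 to 0.0683) and with quantile normalization (-0.20, adjusted p = 0.217). Among the Rab3 genes, the share of Rab3b was 21.4% and 18.9% in immature, 6.51% and 6.10% in mature and 15.3% and 17.0% in double negative libraries.

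By order of level, both mature libraries were above the other 4 for 20 members (34.5%, against 18.7% of all tested genes), including Doc2b, Rab3a, Rab3d, Rims3, Snap25, Syt4, Syt5, Syt7, Syt13, Sytl4, Unc13a and Vamp2. Both mature libraries were below the other 4 for 21 members (36.2%, against 42.2%). Both immature libraries were above the other 4 for 15 members (25.9%, against 42.4%) and below them for 3 (5.17%, against 6.07%). Both double negative libraries were above the other 4 for 14 members (24.1%, against 12.9%), including Cplx2, Rab3c, Rims2, Stx1a, Syt1, Syt9, Syt11, Sytl2 and Sytl5, and below them for 23 (39.7%, against 25.1%). Snap29, Stx6 and Vamp7 met none of these orders. These orders take RPKM as deposited and carry no test.

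Further genes of the pathway outside the symbol rule were counted from a fixed list of 60, of which 55 were tested. In immature against mature cells, 13 rose (23.6%, against 49.8% of all tested genes) and 20 fell (36.4%, against 15.5%), with a median of -0.04 against 0.29 over all genes. Median-ratio rescaling gave 7 higher and 35 lower (12.7% and 63.6%, against 33.7% and 32.2% of all genes). Quantile normalization gave 4 and 38 (7.27% and 69.1%, against 23.4% and 40.1%). Fewer passed in each direction, here and among all genes, when a mature library was left out. Syp, the synaptic vesicle protein synaptophysin, stood at 22.9 and 25.0 (immature), 58 and 58.4 (mature) and 21.1 and 18.5 RPKM (double negative), and fell by 1.25 (SE 0.08, adjusted p = 5.99e-05) in immature cells. Madd, an exchange factor for Rab3 and Rab27, fell by 1.12, and Scamp5, a secretory carrier membrane protein, by 0.89. Rab3il1, an exchange factor for Rab3a, rose by 2.83, the vesicle protein Sv2b by 1.10 and the Rim-binding protein Rimbp2 by 0.89. Rab3il1 stood at 0.0650 and 0.0574 RPKM in the mature libraries and met the minimum only through the other populations. Its rise was favoured by this choice and supports no direction. Sv2b did not pass with quantile normalization (0.46, adjusted p = 0.0605), and Rimbp2 stood at 0.55 with median-ratio rescaling.

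In mature against double negative cells 26 of the 55 were higher (47.3%, against 23.1% of all tested genes) and 11 lower (20%, against 31.2%), with a median of 0.22 against -0.08. Fewer passed in each direction, here and among all genes, when a mature or double negative library was left out. Mlph, a Rab27 effector that binds myosin, was higher by 1.89, Madd by 1.77 and Pclo, a large active zone scaffold, by 1.58. Rab3il1 was lower by 1.61, Ppfia2, a liprin of the active zone, by 1.25 (-0.82 with quantile normalization) and Sv2b by 1.20. Mlph met the minimum only through the beta libraries (0.144 and 0.246 RPKM in double negative ones). Ppfia2 met it only through the double negative libraries (1.54 and 1.51 RPKM), and Rab3il1 only outside the mature ones. Their differences from the populations where they were low, here and below, were favoured by this choice and support no direction. In immature against double negative cells 24 were higher (43.6%, against 45.9%) and 8 lower (14.5%, against 10.6%), with a median of 0.13 against 0.24. These were 12 and 18 with median-ratio rescaling (21.8% and 32.7%, against 28.2% and 22.8% of all genes). They were 11 and 23 with quantile normalization (20% and 41.8%, against 21.4% and 32.5%). Fewer passed in each direction, here and among all genes, when a double negative or mature library was left out. Pclo was higher in immature than in double negative cells by 1.60, Rab3il1 by 1.22 and Mlph by 1.10. Mlph did not pass with quantile normalization (0.49, adjusted p = 0.0679). Ppfia2 was lower by 0.80, and the exocyst subunits Exoc6 and Exoc4 by 0.48 and 0.35. The values of Exoc6 and Exoc4 were -0.73 and -0.59 with median-ratio rescaling and -0.81 and -0.72 with quantile normalization, and the call of Exoc4 was lost without either double negative library (adjusted p = 0.0751 and 0.0519).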

How the data were processed

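RNA of 6 libraries (3 sorted populations, 2 each) was measured. The authors deposited 1 table of RPKM values, 1 column per library; STAR 2.5, featureCounts, edgeR 3.14.0 and the build GRCm38.p4 are named per the submitters' processing notes, while no annotation release or read filter is given in the sources used here. Since each RPKM is a share of its library, abundant genes lower all others: Ins2 held 12.0% and 12.4% (immature), 33.2% and 34.8% (mature) and 0.263% and 0.563% (double negative) of summed RPKM. Gcg, the glucagon gene, held 7.47% and 4.83% (immature), 0.112% and 0.147% (mature) and 40.3% and 38.9% (double negative). The RPKM steps gave whole reads, within 0.0001 reads, for 25803 of 25803 genes above 0 (100%). The library totals and read numbers were taken from these. The length used was the annotated exonic length for 73.1% of these genes and for 43 of the 57 members in the annotation. Sytl2 was not among them (6888 bases used, 13941 annotated). Read numbers of Sytl2 and other such genes were thus not checked against an annotated length. Precision from depth covers counting error only.

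Genes with at least 1 RPKM in at least 2 of 6 libraries were tested across all genes on log2(RPKM + 1), a pseudocount of 1, with limma 3.58.1 in R 4.3.3: group means, an intensity trend, 3 residual degrees of freedom, and Benjamini-Hochberg adjustment at 0.05. The fit was also run on simulated data that gave all groups the spread of the mature pair and changed only a set of genes. The immature replicates differed more (SD 0.393 against 0.132 in mature), so that run does not vouch for the calls here. Alternatives were other pseudocounts and filters, 2 rescalings of the libraries, other variance models, the 2 groups alone, a replicate block, voom on the recovered reads, and each library left out.

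The members and gene lists were chosen with earlier results of these data known. Named with all values were core members of granule release and, per comparison, the 8 largest rises and 8 largest falls among members that passed; others were named to complete a family. Coordinates and exon overlaps come from GENCODE M21 (GRCm38). Results for some genes are not reported here, although counts, medians and sums include them.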

Additional observations from a re-analysis of the deposited data

How the results depend on the processing

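Alternatives are on the log2(RPKM + 1) scale unless named. Of the calls between immature and mature cells, 9 of 21 rises and 13 of 17 falls passed in every alternative run; between mature and double negative cells 19 of 25 and 14 of 18 did, and between immature and double negative cells 8 of 25 and 10 of 12. Quantile normalization gave 9 rises and 30 falls among members between immature and mature cells (3122 and 5359 of all genes) and 8 and 24 between immature and double negative cells (2864 and 4348). Median-ratio rescaling gave 29 falls (4300 of all genes) in the first comparison and 12 rises and 19 falls (3765 and 3052 of all genes) in the last. A minimum of 5 RPKM, which tests fewer genes, left 4118 rises among all genes between immature and mature cells. Turns of sign are listed next only for members called on the RPKM scale or past the threshold under the rescaling. Any others are left out. With quantile normalization these members turned negative for immature against mature cells: Rab27b -0.20, Rab3c -0.37, Rims2 -0.40, Stx17 -0.0648, Stx3 -0.28, Stx6 -0.45, Stx8 -0.58, Stxbp3 -0.28, Stxbp4 -0.60, Stxbp5 -0.0081, Syt1 -0.0449, Syt12 -0.40, Unc13b -0.33 and Vamp1 -0.14. So did, with median-ratio rescaling, Rims2 -0.25, Stx3 -0.31, Stx5a -0.18, Stx7 -0.33, Stxbp2 -0.24 and Vamp7 -0.28. For immature against double negative cells, quantile normalization turned Stx3 to -0.0505, Stx8 to -0.37, Syt13 to -0.18, Syt14 to -0.25, Syt2 to -0.43, Syt3 to -0.0453, Unc13a to -0.0727 and Vamp1 to -0.0071, and median-ratio rescaling turned Stx3 to -0.0018, Syt13 to -0.079 and Unc13a to -0.0231. The median of all genes was 0.285 on the RPKM scale, 0.000998 with median-ratio rescaling and -0.171 with quantile normalization in the first comparison, and 0.237, 0.0105 and -0.114 in the last; the cause of these turns was not tested. No member called on the RPKM scale changed sign in an alternative other than the 2 rescalings. A pseudocount of 0.25 or 4, which sets the size of low values, moved 6 and 13 of 38 calls between immature and mature cells by over 1.5 times without ending them, 6 and 13 of 43 between mature and double negative cells, and 2 and 14 of 37 between immature and double negative cells.

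Leaving out 1 library gave 19 to 24 rises and 13 to 19 falls among members between immature and mature cells, 21 to 28 and 14 to 20 between mature and double negative, and 15 to 27 and 10 to 13 between immature and double negative cells. Over all genes the ranges were 4964 to 7356 and 1321 to 2454, 2028 to 3765 and 2629 to 5217, and 4223 to 6988 and 837 to 1894. The fit then has 2 residual degrees of freedom, and a lone library is assumed to vary like the other groups. A replicate block gave 21 rises and 17 falls among members between immature and mature cells, 24 and 19 between mature and double negative, and 23 and 11 between immature and double negative cells. The replicate numbers are not shown to pair the samples: replicate differences correlated across genes at -0.00933 (immature with mature), 0.140 (immature with double negative) and -0.112 (mature with double negative). Shallow immature libraries limit Cplx1, which rests there on 7 and 34 reads, and Sytl2, on 34 and 38. For the further genes of the pathway, alternatives chosen after seeing the data gave 7 rises and 35 falls with median-ratio rescaling and 4 and 38 with quantile normalization between immature and mature cells, and 12 and 18, and 11 and 23, between immature and double negative cells. Leaving out 1 library gave 8 to 14 rises and 13 to 22 falls, 17 to 33 and 6 to 13, and 17 to 25 and 2 to 11 in the 3 comparisons in the order above.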
